A study of Mus musculus with 12 samples.

Results

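Cytosolic ribosomal protein genes were followed in the lacrimal gland, the tear-producing gland of the orbit, of control mice, ESS mice and NOD mice. Members were the rows of the gene table whose symbol begins with Rpl or Rps followed by a digit or a p, without the Rps6k kinases, and 88 of 11736 listed genes met this rule. They comprised 54 names of the large subunit and 34 of the small subunit, and 6 of them carry the pseudogene suffix -ps. Rps19bp1 met the rule by its name although it encodes a partner of RPS19 that is not part of the ribosome. Rpsa, Fau and Rack1, which also encode cytosolic ribosomal proteins, did not meet it and are given as a separate list.

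Total RNA was sequenced from 4 groups of 3 libraries: control, ESS, NOD at 8 weeks and NOD at 12 weeks. NOD (non-obese diabetic) is an inbred strain that develops autoimmune inflammation of several glands. The design text of the series speaks of LGSS mice and the sample labels of ESS, which were treated as names of one group. The labels state no strain, age, sex or treatment for the control and ESS mice, so genetic background, age and disease cannot be told apart between NOD and the other groups. Nothing in the labels says that the 3 libraries of a group came from separate animals, so p-values describe the spread between libraries, which may be technical.

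A ribosome is built from ribosomal RNA and a set of proteins that, with few exceptions, are each needed in a single copy per particle. The large subunit joins amino acids and the small subunit reads the messenger RNA. Many of these messenger RNAs begin with a tract of pyrimidines, the TOP tract, through which mTOR signalling adjusts their translation. Glands that secrete much protein, such as the lacrimal gland, depend on this machinery. Almost every ribosomal protein gene also has processed pseudogenes, copies of the spliced messenger RNA inserted elsewhere in the genome.

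Expression was given by the authors as FPKM (fragments per kilobase, scaled to the size of the library), a unit that corrects for gene length, and all values per library below are FPKM unless another unit is named. Differences are in log2(FPKM + 1), tested with limma across the 10325 genes that reached 1 FPKM in at least 3 of the 12 libraries, and a gene is said to rise or fall where its Benjamini-Hochberg adjusted p over all of these genes is under 0.05. All 88 members passed this filter, Rpl7a-ps5 mainly through the control libraries, and no member value was 0. Between 63.8% and 76.5% of the FPKM listed for a library fell on its 20 most abundant genes, and all others share what remains. Genes taken as markers of lacrimal epithelium were listed in 6 of 6 cases. Their summed levels were 3155 to 4628 in control, 5213 to 7144 in ESS, 6833 to 7659 in NOD at 8 weeks and 6969 to 7310 at 12 weeks. Gene by gene the list did not follow these sums. Its median difference from control was -0.03 in ESS, -0.13 at 8 weeks and -0.11 at 12 weeks. Of the 6 genes, 1 rose and 2 fell at 8 weeks, and 1 rose and none fell at 12 weeks. In bulk tissue, fewer cells of a type and less RNA per cell cannot be told apart.

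As a family, the ribosomal protein genes took a smaller share of the listed FPKM in NOD glands. The share was 3.10%, 3.33% and 3.35% in the control libraries and 3.52%, 2.98% and 2.94% in ESS. It was 2.16%, 2.34% and 2.13% in NOD at 8 weeks and 2.18%, 1.80% and 1.81% at 12 weeks. Every NOD library lay below every control and ESS library, whereas control and ESS overlapped and so did the NOD ages. The means were 3.26% ± 0.144 in control, 3.14% ± 0.322 in ESS, 2.21% ± 0.115 at 8 weeks and 1.93% ± 0.214 at 12 weeks (SD, n = 3). With the most abundant genes outside the family taken out of the total, the groups kept this order at 13.8% ± 0.637, 13.7% ± 0.381, 12.0% ± 0.817 and 11.2% ± 0.308. The gaps between NOD and control were then narrower in proportion to control, though not in percentage points. The summed FPKM of large over small subunit genes was 1.70 ± 0.0175 in control, 1.69 ± 0.0174 in ESS, 1.66 ± 0.0241 at 8 weeks and 1.66 ± 0.00741 at 12 weeks, so both subunits took part in the lower share. No test was made of these shares.

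**Figure D1:**
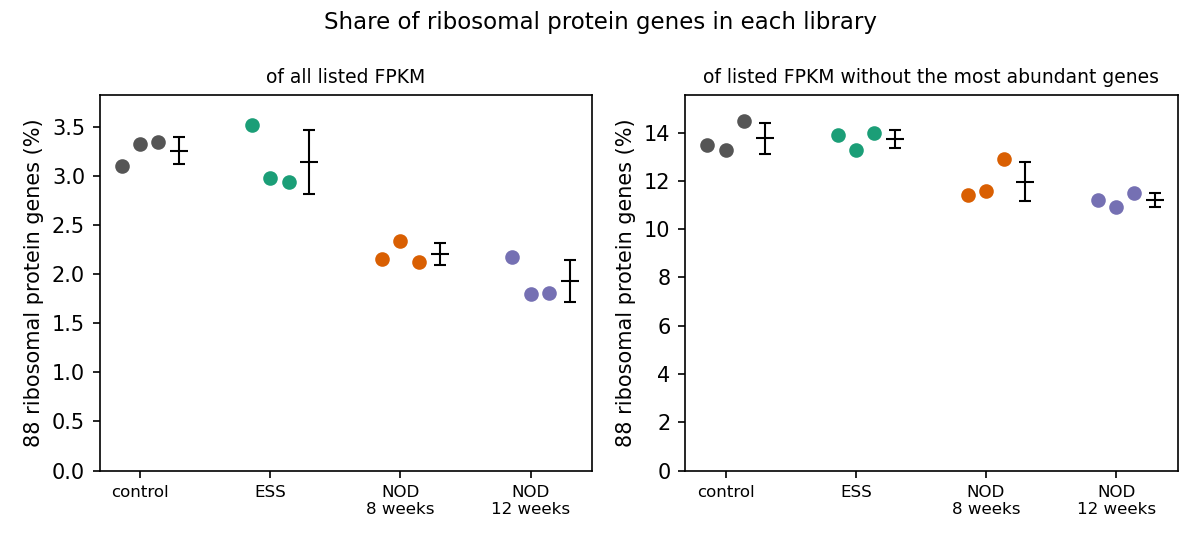
Share of listed FPKM held by the 88 ribosomal protein genes in each library (%), of all listed genes (left) and without the most abundant genes outside the family (right). Points are libraries and bars the mean ± SD of 3, and all NOD libraries lie below all control and ESS libraries in the left panel, with means of 3.26%, 3.14%, 2.21% and 1.93%.

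Levels within the family spanned a wide range. The mean over the 12 libraries ran from 0.963 FPKM in Rpl7a-ps5 to 968 in Rplp1, with a median of 147 over members and of 3.93 over all listed genes. The most abundant were Rplp1, an acidic protein of the stalk that recruits translation factors, Rpl17, a protein at the exit of the nascent peptide tunnel, and Rps3a1 of the small subunit. Rpl17 was at 950, 1117 and 1119 in control, at 1074, 957 and 953 in ESS, at 902, 932 and 916 in NOD at 8 weeks and at 802, 765 and 825 at 12 weeks. The libraries of NOD at both ages lay below those of control. The least abundant, Rpl7a-ps5, Rpl36a-ps1 and Rpl9-ps6, all carry the pseudogene suffix.

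In ESS against control, none of the 88 members rose and none fell by limma, where 0.0678% of all tested genes rose and 0.0969% fell. Without adjustment, 2 members were under 0.05, Rpl7a-ps5 at -0.34 (adjusted p = 0.262 by limma) and Rps27rt at -0.51 (adjusted p = 0.411 by limma). The median difference of the members was -0.04 beside -0.06 over all tested genes. This median was 0.03 when library medians were centred, so no direction is given for it. The salivary gland list, of which 5 of 6 genes were listed, summed to between 31.7 and 13531 FPKM in ESS libraries, highest in libraries 1 and 2, and its part in these values was not tested.

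In NOD at 8 weeks against control, 49 members fell, none rose and 39 did not pass, where 22.1% of all tested genes fell and 5.30% rose. The members that fell were 55.7% of the family. The count was 30 without control library 3 and 31 without library 1 of NOD at 8 weeks. In 66 members all NOD libraries lay below all control libraries, a pattern found in 33.2% of all tested genes. In NOD at 12 weeks against control, 81 members fell, none rose and 7 did not pass, where 27.8% of all tested genes fell and 5.52% rose. The members that fell were 92.0% of the family, and in 81 members the libraries did not overlap, as in 40.4% of all tested genes. Median differences of the members were -0.31 at 8 weeks and -0.48 at 12 weeks, beside -0.15 and -0.18 over all tested genes, so that relative to the median gene the median member stood at -0.16 and -0.29.

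The size of the set that fell depended on how libraries were scaled, since centring of library medians moved the median of all genes by 0.17 at 8 weeks and by 0.19 at 12 weeks. After centring, 16 members fell at 8 weeks and 37 at 12 weeks. Over all tested genes this scaling turned 547 rises and 2278 falls into 1266 rises and 1150 falls at 8 weeks, and 570 rises and 2874 falls into 1308 and 1241 at 12 weeks. No member rose under any of the 3 other scalings, and the median of the members stayed between -0.24 and -0.14 at 8 weeks and between -0.30 and -0.28 at 12 weeks. Under all 3 of them, 16 of the 49 members fell at 8 weeks and 35 of the 81 at 12 weeks, among them Rpl29, Rpl34, Rps18, Rpl35a, Rpl30 and Rpl21 at both ages. Over all 10325 tested genes, the number that fell under all 3 was not counted. It can be at most the 1150 and 1241 that fell after centring.

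**Figure D2:**
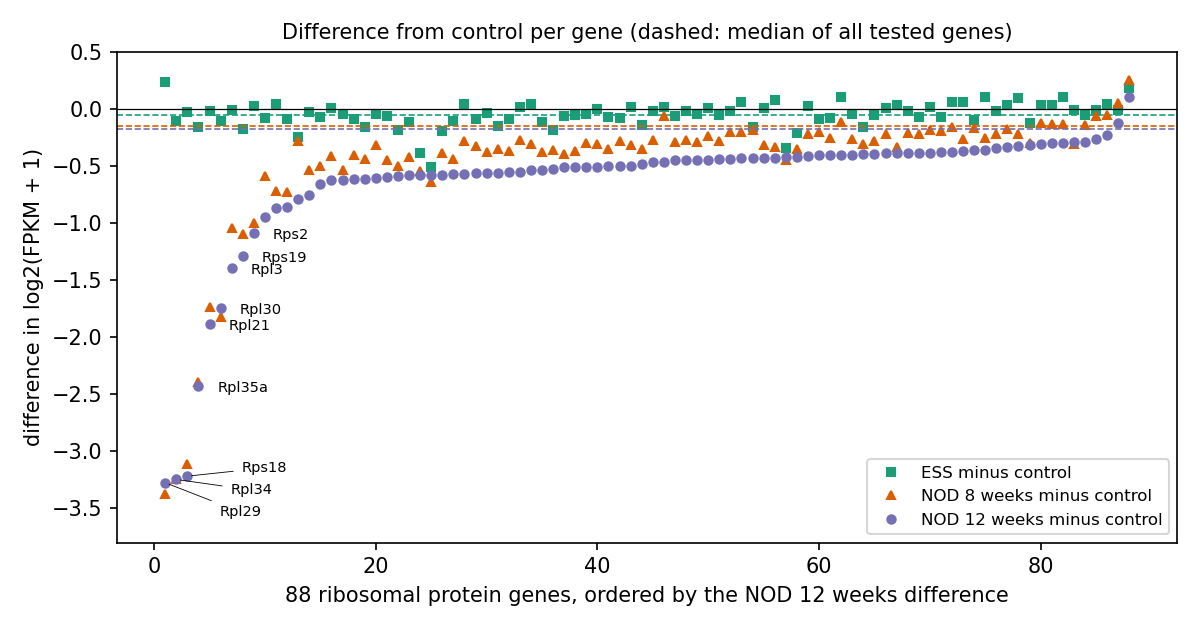
Difference from control in log2(FPKM + 1) of each of the 88 members, ordered by NOD at 12 weeks, with dashed lines at the median of 10325 tested genes (-0.06 in ESS, -0.15 and -0.18 in NOD). ESS squares scatter around 0, the quartiles of NOD at 12 weeks are -0.59 and -0.39, and 6 genes lie at -1.74 or below at both NOD ages.

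Between the NOD ages, none of the 88 members rose or fell by limma, where 0.0775% of all tested genes rose and 0.0484% fell from 8 to 12 weeks. Without adjustment, 27 of 88 members and 934 of 10325 tested genes had p under 0.05. Values were below 0 in 83 members, or 94.3%, and in 58.1% of all tested genes, with medians of -0.16 and -0.03. Under quantile normalization the median of the members was -0.05. In 28 members the libraries at 12 weeks lay wholly below those at 8 weeks, a pattern found in 9.78% of all tested genes. A decline between these ages was thus not detected gene by gene with 3 libraries a group.

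ESS glands were compared with NOD glands directly. Against NOD at 8 weeks, 29 members were higher in ESS and none was lower, where 11.3% of all tested genes were higher and 3.94% lower. Against NOD at 12 weeks, 72 members were higher and none was lower, where 16.2% were higher and 4.44% lower. Without ESS libraries 1 and 2, which held the highest salivary gland levels, only 1 ESS library was left, so no counts are given for that fit. The counts of higher members were 16 and 51 without ESS library 1 alone, and the first was 18 without library 1 of NOD at 8 weeks.

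A small set stood far from the rest of the family. Rpl29, Rpl34, Rps18, Rpl35a, Rpl30 and Rpl21 had between 8.62% and 29.9% of their control mean in NOD at 8 weeks and between 9.23% and 29.0% at 12 weeks. The other 82 members had a median of 81.5% of control at 8 weeks, from 46.2% in Rps19 to 122% in Rps25, and a median of 72.3% at 12 weeks, from 31.7% in Rpl36a-ps1 to 110% in Rps25. At 8 weeks 6 members, or 6.82%, were lower than the median gene by more than 1 on the log2 scale, and at 12 weeks 8 members, or 9.09%, were, beside 2.57% and 2.03% of all tested genes. Leaving out Rpl29, Rpl34 and Rps18 left the median of the remaining 85 at -0.31 at 8 weeks and -0.47 at 12 weeks. A median over so many genes can hardly move when so few are left out, so nothing is concluded from this. Of the remaining 85, 83 (97.6%) had a difference from control below 0 at 8 weeks and 84 (98.8%) at 12 weeks. The shares of all tested genes below 0 were 70.6% and 73.7%.

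Rpl29 encodes a small basic protein of the large subunit that also occurs at the cell surface, where it binds heparan sulfate. The gene lies on the plus strand at chr9:106429454-106431568 (GRCm38). It measured 72.9, 107 and 103 in control and 176, 95.3 and 77.9 in ESS, and 8.84, 6.58 and 8.95 in NOD at 8 weeks and 8.37, 8.67 and 9.06 at 12 weeks. All 6 NOD libraries were far below the lowest control library, and ESS library 1 was the highest of all. The difference from control was -3.38 ± 0.25 (SE; adjusted p = 2.59e-06 by limma) at 8 weeks and -3.28 ± 0.25 (adjusted p = 3.04e-06 by limma) at 12 weeks.

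Rpl34, a protein of the large subunit, lies on the minus strand at chr3:130726831-130730398. It measured 74.0, 72.9 and 81.8 in control, 76.4, 62.2 and 74.6 in ESS, 8.04, 6.48 and 7.07 in NOD at 8 weeks and 6.95, 7.06 and 7.37 at 12 weeks. The NOD libraries of both ages were alike and far from the other groups, which overlapped each other. The difference was -3.24 ± 0.10 (adjusted p = 1.44e-09 by limma) at 8 weeks and -3.25 ± 0.10 (adjusted p = 1.4e-09 by limma) at 12 weeks, the smallest adjusted p in the family at either age.

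Rps18, a protein of the head of the small subunit that contacts the large subunit, lies on the minus strand at chr17:33951999-33956001. It measured 147, 148 and 147 in control, 156, 134 and 145 in ESS, 13.9, 23.7 and 12.7 in NOD at 8 weeks and 14.3, 18.6 and 12.5 at 12 weeks. The control libraries were almost identical, and no NOD library came near them. The difference was -3.11 ± 0.19 (adjusted p = 6.7e-07 by limma) at 8 weeks and -3.22 ± 0.19 (adjusted p = 4.72e-07 by limma) at 12 weeks.

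Rpl35a, whose human counterpart is mutated in some patients with Diamond-Blackfan anaemia, lies on the plus strand at chr16:33056453-33060189. It measured 63.4, 59.2 and 76.4 in control, 62.3, 51.0 and 63.7 in ESS, 12.3, 11.1 and 11.8 in NOD at 8 weeks and 10.9, 11.8 and 11.6 at 12 weeks. Rpl30, on the minus strand at chr15:34440505-34443640, encodes a protein that in yeast binds its own transcript. It measured 78.7, 71.9 and 77.7 in control, 73.0, 64.1 and 74.4 in ESS, 20.3, 19.2 and 22.8 at 8 weeks and 20.3, 21.8 and 24.2 at 12 weeks. Rpl21, of the large subunit, lies on the plus strand at chr5:146832890-146837032. It measured 155, 160 and 157 in control, 161, 149 and 156 in ESS, 50.4, 37.0 and 53.7 at 8 weeks and 43.9, 41.4 and 40.3 at 12 weeks. In all of these genes the NOD libraries were separate from control and ESS, which overlapped. Differences at 8 and 12 weeks were -2.40 and -2.43 in Rpl35a, -1.82 and -1.74 in Rpl30, and -1.74 and -1.89 in Rpl21, each past the limma threshold.

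In none of these 6 genes did the NOD ages differ past the threshold, with differences between -0.15 in Rpl21 and 0.10 in Rpl29. ESS against control was not past the threshold in any of them either, between -0.16 in Rpl35a and 0.23 in Rpl29. They lie on chromosomes 9, 3, 17, 16, 15 and 5. Rps28, a small subunit gene at chr17:33819027-33824562 in the neighbourhood of Rps18, measured 71.1, 57.6 and 81.1 in control and 54.5, 49.0 and 55.0 in NOD at 8 weeks. Its NOD libraries lay below control by a much smaller margin than those of Rps18.

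**Figure D3:**
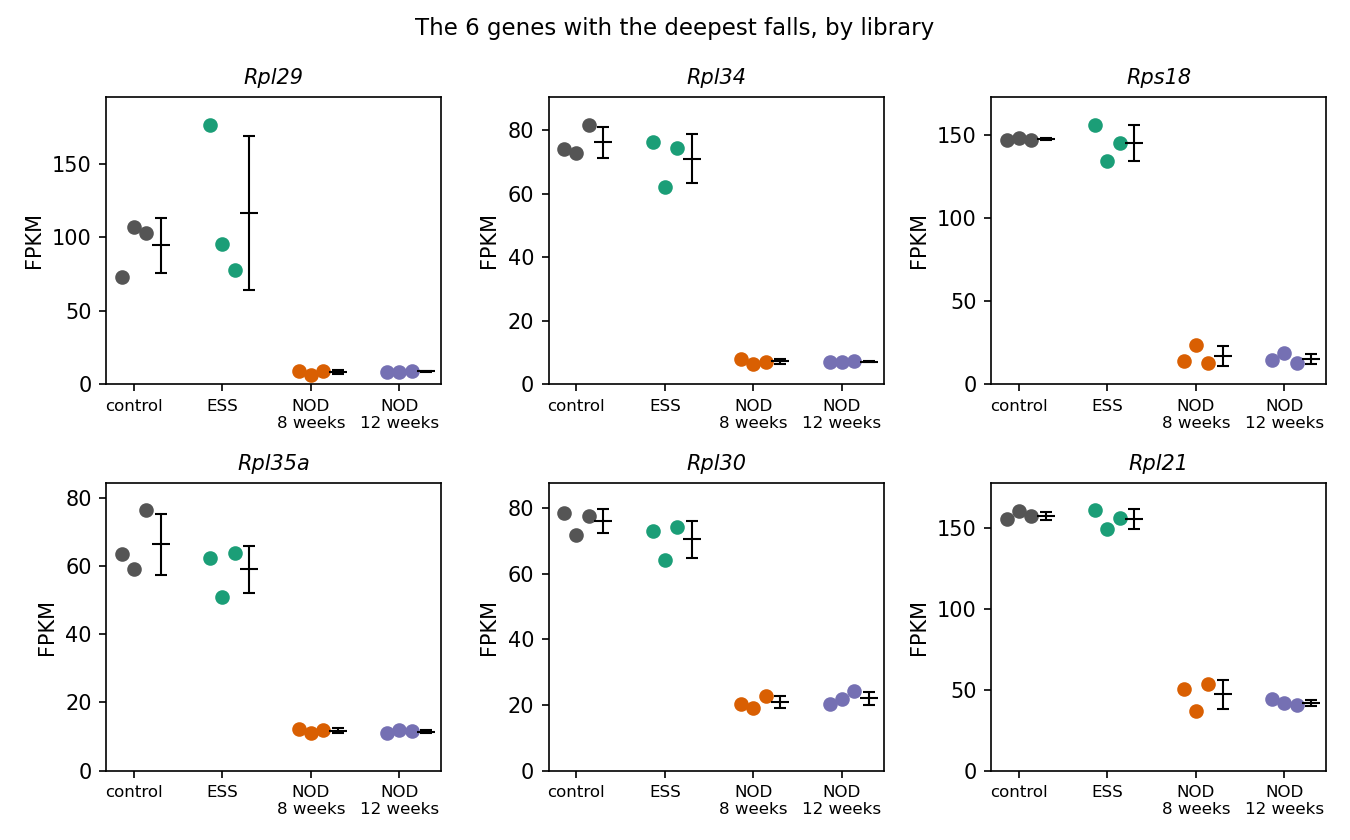
FPKM of Rpl29, Rpl34, Rps18, Rpl35a, Rpl30 and Rpl21 in each library, with mean ± SD of 3 beside the points and axes from 0. Control and ESS overlap in each panel, and all NOD libraries lie well below them. The NOD group means lie between 8.62% and 29.9% of the control mean.

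Because ribosomal protein genes have near-identical copies, the coding sequence of each member's most abundant transcript was compared with all transcripts of the GENCODE M21 annotation. A copy was counted where another gene matched at least 95% of bases over at least 80% of the coding sequence. Of 86 members with a coding sequence, 81 had at least 1 copy and 5 had none. There were 577 such genes in all, each counted once, 553 of them annotated as pseudogenes. Of these, 23 were listed in the gene table, and 12 of the 23 were themselves members, such as Rpl10 and Rpl10-ps3 or Rps12 and Rps12-ps3, which are copies of each other. No label or header says how fragments that match several genes were counted, so the value of a member with copies is uncertain to that extent. The 6 genes set apart had a median of 13.0 copies, from 5 to 57, and the other 80 a median of 4.5, from 0 to 31. Across the 86 members the rank correlation of the number of copies with the difference from control was -0.07 at 8 weeks and -0.06 at 12 weeks, as a description over genes that share libraries.

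Rps18 had 5 copies, and 2 of them, Gm11361 and Gm10260, were listed as genes of the protein-coding type. Gm11361 lies on the plus strand at chr13:28257528-28258134 and Gm10260 on the minus strand at chr13:97760072-97760632. Each is annotated without introns, with exons of 607 and 561 bases, and their coding sequences match that of Rps18 at 99.3% and 99.1% of bases. These genes are named because of their values, outside the rule for named genes. A stretch of 150 bases of the 456-base coding sequence shows how alike they are. It runs from coding base 304 to 453, 5′ to 3′, counted from 1 at the first base of the start codon in the transcripts of GENCODE M21, and capitals mark the positions that differ between any of the genes.
Rps18: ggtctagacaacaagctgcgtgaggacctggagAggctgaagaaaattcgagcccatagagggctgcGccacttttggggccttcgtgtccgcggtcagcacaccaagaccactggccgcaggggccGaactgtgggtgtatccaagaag
Gm11361: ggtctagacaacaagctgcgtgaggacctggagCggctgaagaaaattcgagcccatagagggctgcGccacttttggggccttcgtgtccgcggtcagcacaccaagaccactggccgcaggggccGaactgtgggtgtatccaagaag
Gm10260: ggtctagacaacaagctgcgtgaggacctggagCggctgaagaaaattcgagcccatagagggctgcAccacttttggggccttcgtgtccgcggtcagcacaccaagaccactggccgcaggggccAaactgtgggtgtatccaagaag
In this stretch both copies carry A337C relative to Rps18, and Gm10260 also carries G371A and G431A. Outside it, Gm11361 carries T11A and A171C, and Gm10260 carries T186C.

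The 2 copies moved opposite to Rps18. Gm11361 measured 9.01, 8.22 and 7.82 in control, and 233, 268 and 264 in NOD at 8 weeks and 242, 206 and 205 at 12 weeks. Gm10260 measured 0.65, 2.17 and 2.17 in control, and 445, 379 and 499 at 8 weeks and 406, 370 and 367 at 12 weeks. In ESS their means were 6.79 ± 1.64 and 1.14 ± 0.13 (SD, n = 3), within or below the control range. Every NOD library was far above every control and ESS library. The rises were 4.77 ± 0.13 for Gm11361 (SE; adjusted p = 8.49e-10 by limma) and 7.43 ± 0.21 for Gm10260 (adjusted p = 8.49e-10 by limma) at 8 weeks, and 4.55 ± 0.13 and 7.23 ± 0.21 (adjusted p = 1.09e-09 by limma for each) at 12 weeks.

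Added up, Rps18 and its listed copies did not show the fall. FPKM times joined exon length in kb measures a gene's share of the fragments of a library if its FPKM was computed on that length. Gene values rebuilt on that length from the listed transcripts matched within 1% in 29 of 88 members, with a lowest ratio of 0.508. For Rps18 alone the measure gave 361 ± 1.64 in control, 355 ± 27.5 in ESS, 41.1 ± 14.8 in NOD at 8 weeks and 37.1 ± 7.72 at 12 weeks. The sum of Rps18, Gm11361 and Gm10260 was 366, 369 and 366 in the control libraries and 388, 332 and 359 in ESS. It was 426, 433 and 471 in NOD at 8 weeks and 410, 378 and 361 at 12 weeks. The sum thus stood at 121% of control at 8 weeks, where the libraries did not overlap, and at 104% at 12 weeks, where they did. With each member joined to its listed copies, an alternative chosen after seeing the data, Rps18 differed from control by 0.27 (adjusted p = 0.0285 by limma) at 8 weeks and 0.06 (adjusted p = 0.610 by limma) at 12 weeks, and 48 and 80 members fell.

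**Figure D4:**
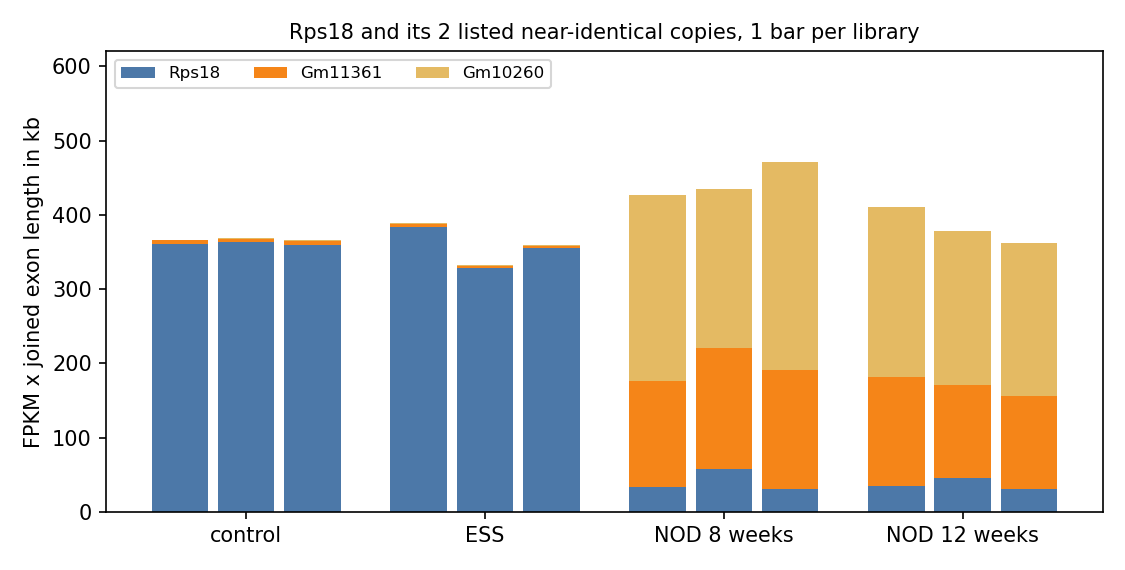
Share of fragments (FPKM times joined exon length in kb) of Rps18, Gm11361 and Gm10260, stacked, 1 bar per library in each group. Rps18 fills nearly the whole bar in control and ESS, while in NOD the copies on chromosome 13 hold most of a bar whose total stays at 361 to 471.

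The other genes set apart had no such counterpart among the listed genes. The listed copy of Rpl29, Gm17669, was at 2.48 ± 0.748 (SD, n = 3) in control and was listed at 0 in all 6 NOD libraries, and Rpl29 with this copy was at 8.53% of control at 8 weeks and 9.14% at 12 weeks. Part of BC004004 on chromosome 17 matches Rpl21 in sequence, and that gene measured 18.4 ± 0.479 in control, 18.7 ± 1.74 at 8 weeks and 18.6 ± 1.07 at 12 weeks. Joined with it, Rpl21 was at 58.4% and 56.2% of control, beside 29.9% and 26.6% alone. All fragments of BC004004 entered this sum, although it has 19180 bases of joined exons and the matched coding sequence of Rpl21 has 480. Its FPKM times joined exon length in kb was flat, at 354 in control, 359 at 8 weeks and 358 at 12 weeks. The higher percentages thus reflect a constant amount added to each group and not a rise of the copy. The 5 copies of Rpl34, 14 of Rpl35a and 12 of Rpl30 are annotated pseudogenes and were not analysed here. Nor were 26 of the 27 copies of Rpl29 and 56 of the 57 copies of Rpl21.

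The closeness of these unmeasured copies is shown for Rpl34 and Rpl29, each beside the copy that matches its whole coding sequence best. Rpl34-ps1 lies at chr6:71124610-71124963 and Gm6344 at chr13:55085777-55086259, both on the plus strand. Each matches its parent at 99.4% of bases. The stretches run from coding base 58 to 207 of Rpl34 and from 286 to 435 of Rpl29, with differing bases in capitals.
Rpl34: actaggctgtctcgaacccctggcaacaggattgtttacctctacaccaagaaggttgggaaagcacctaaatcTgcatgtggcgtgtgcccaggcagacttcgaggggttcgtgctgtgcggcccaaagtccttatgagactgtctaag
Rpl34-ps1: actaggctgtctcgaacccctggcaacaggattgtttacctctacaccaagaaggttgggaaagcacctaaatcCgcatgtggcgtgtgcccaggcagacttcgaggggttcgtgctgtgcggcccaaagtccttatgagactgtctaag
Rpl29: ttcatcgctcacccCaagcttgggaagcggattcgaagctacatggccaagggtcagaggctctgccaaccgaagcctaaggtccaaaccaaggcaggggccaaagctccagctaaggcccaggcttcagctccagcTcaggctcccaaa
Gm6344: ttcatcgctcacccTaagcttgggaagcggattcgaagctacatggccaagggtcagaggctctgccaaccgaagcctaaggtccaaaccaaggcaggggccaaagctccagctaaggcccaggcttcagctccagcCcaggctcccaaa
The stretches hold T132C between Rpl34 and its copy, and C300T and T423C between Rpl29 and its copy.

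Below the 6 genes came Rpl3, Rps19 and Rps2, named here for their values. Rpl3, which reaches toward the peptidyl transferase centre of the large subunit, measured 189, 186 and 163 in control, 83.4, 86.1 and 89.6 in NOD at 8 weeks and 74.1, 63.1 and 65.1 at 12 weeks. Rps19, the gene most often mutated in human Diamond-Blackfan anaemia, measured 57.1, 56.1 and 64.1 in control, 27.5, 23.0 and 31.5 at 8 weeks and 26.3, 21.3 and 23.3 at 12 weeks. Rps2, at the entry of the messenger RNA channel, measured 350, 389 and 382 in control, 169, 185 and 205 at 8 weeks and 185, 176 and 165 at 12 weeks. No NOD library reached a control library in any of them. They fell by 1.04, 1.09 and 1.00 at 8 weeks and by 1.40, 1.29 and 1.09 at 12 weeks, in that order (limma adjusted p between 7.86e-07 and 4.33e-05).

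Of the stalk proteins, which dock the elongation factors, Rplp0 and Rplp1 were lower relative to control than Rplp2. Rplp0, the base of the stalk, measured 793, 858 and 782 in control, 889, 815 and 799 in ESS, 463, 523 and 490 in NOD at 8 weeks and 469, 442 and 421 at 12 weeks. Rplp1 measured 1233, 1088 and 1452 in control, 1246, 1120 and 1150 in ESS, 701, 770 and 786 at 8 weeks and 747, 636 and 687 at 12 weeks. Rplp2 measured 108, 102 and 128 in control, 109, 92.0 and 101 in ESS, 81.0, 74.8 and 91.5 at 8 weeks and 81.2, 67.0 and 71.4 at 12 weeks. In all of them the NOD libraries lay below control without overlap. At 12 weeks Rplp0 was at 54.8%, Rplp1 at 54.9% and Rplp2 at 64.9% of control. The call of Rplp2 at 8 weeks was lost when library medians were centred (-0.27, adjusted p = 0.150 by limma), when rescaled (-0.31, adjusted p = 0.0673 by limma) and without NOD library 2 (-0.38, adjusted p = 0.0521 by limma). Of the stalk and its neighbour Rpl12, 3 of 4 genes fell at 8 weeks and 4 of 4 at 12 weeks, with Rpl12 at -0.27 (adjusted p = 0.0269 by limma) at the later age.

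Other parts of the particle are given by their counts, to be read against the 55.7% of the family and 22.1% of all tested genes that fell at 8 weeks and the 92.0% and 27.8% at 12 weeks. No test compared these parts with each other. Of 10 proteins at the exit of the peptide tunnel, 2 fell at 8 weeks, a share near that of all genes, and 10 at 12 weeks, with medians of -0.23 and -0.40. Of 14 proteins of the head of the small subunit, 7 (50.0%) and 12 (85.7%) fell, near the shares of the family, with medians of -0.29 and -0.48, Rps18 and Rps19 included. Rpl5 and Rpl11, which bind the 5S ribosomal RNA and, outside the ribosome, the p53 regulator Mdm2, behaved like the bulk of the family. Rpl5 fell at both ages, by 0.24 and 0.45, and Rpl11 fell by 0.39 at 12 weeks and stood at -0.19 at 8 weeks without passing. The calls of Rpl5 at 8 weeks and of Rpl11 and Rpl12 at 12 weeks were lost under at least 1 of the 3 other scalings. Of 19 mouse genes whose human counterparts are mutated in Diamond-Blackfan anaemia, 13 (68.4%) fell at 8 weeks and 18 (94.7%) at 12 weeks, the latter near the share of the family.

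At 12 weeks 7 members did not pass: Rps27rt, Rps12-ps3, Rpl27-ps3, Rps29, Rpl10, Rpl10a and Rps25. Rps25, a small subunit protein needed by some viral internal ribosome entry sites, measured 77.4, 80.1 and 88.4 in control, 86.9, 113 and 81.9 in ESS, 72.6, 113 and 114 in NOD at 8 weeks and 106, 62.6 and 102 at 12 weeks. All groups overlapped, and its difference at 12 weeks, 0.10, was the only one above 0. Rpl10a measured 138, 134 and 139 in control and 140, 118 and 120 in NOD at 12 weeks, which overlapped too. Rps29 and Rpl10 had NOD libraries below control at 12 weeks, with differences of -0.32 (adjusted p = 0.0621 by limma) and -0.29 (adjusted p = 0.0628 by limma). Rps12-ps3, Rpl27-ps3 and Rps27rt overlapped with control.

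Genes taken as paralogs, relatives of another ribosomal protein gene, were listed for 6 of 10 names. Not all encode a variant form, since the coding sequence of Rps27rt is identical to that of Rps27. Of the 6, 3 (50.0%) fell at 8 weeks and 5 (83.3%) at 12 weeks, beside 55.7% and 92.0% of the family. The exceptions to these calls under other scalings are given with each gene. Rpl36al measured 197, 202 and 217 in control, 164, 157 and 169 in NOD at 8 weeks and 144, 135 and 135 at 12 weeks. Rpl7l1, a relative of Rpl7, measured 29.1, 31.5 and 24.7 in control, 20.9, 20.3 and 18 at 8 weeks and 17.0, 18.8 and 16.8 at 12 weeks. Neither overlapped with control at either age. Rpl36al did not pass at 8 weeks when library medians were centred (-0.15, adjusted p = 0.219 by limma) or rescaled (-0.19, adjusted p = 0.0832 by limma). Rps27l, a target of p53, measured 296, 237 and 342 in control, 201, 226 and 252 at 8 weeks and 244, 197 and 208 at 12 weeks, so that its groups overlapped, and it passed at 12 weeks at -0.42 (adjusted p = 0.0352 by limma). That call did not hold under quantile normalization (-0.15, adjusted p = 0.438 by limma), centring (-0.23, adjusted p = 0.314) or rescaling without the most abundant genes (-0.21, adjusted p = 0.320). It was also lost in the fit of only the compared groups, with transcript values summed per gene, and without control library 1 or 3 or NOD library 2 or 3 (adjusted p from 0.0716 to 0.125 by limma). Rpl9-ps6 fell at 12 weeks by 0.79 (adjusted p = 0.0140 by limma), a call that did not hold under quantile normalization, centring or rescaling (adjusted p from 0.0549 to 0.0658 by limma), and Rps27rt passed at neither age.

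Transcripts were read from the transcript table, which lists 215 for the members, with 1 for 39 members and 2 or more for 49. A limma fit over 16400 transcripts, 199 of them from members, was a test added after seeing the data. In NOD at 8 weeks against control, 52 member transcripts (26.1%) fell and 5 (2.51%) rose, where 6.53% of all tested transcripts fell and 2.18% rose. At 12 weeks 82 (41.2%) fell and 4 (2.01%) rose, where 8.69% fell and 2.52% rose. Rises among member transcripts were thus near the share of all tested transcripts. Between the NOD ages 1 member transcript fell from 8 to 12 weeks, Rpl10-211, and none rose, where 0.0366% of all tested transcripts fell and 0.0305% rose. The division of a gene's fragments among its transcripts is an estimate, and it could swap between libraries of the same group. The clearest case is Rps10, in which Rps10-208 measured 453, 8.90 and 11.2 in control while Rps10-203 measured 78.6, 317 and 386.

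Rpl22l1, the paralog of Rpl22, changed which of its transcripts was the more abundant. Rpl22l1-206 measured 70.9, 49.8 and 80.4 in control, 63.5, 64.9 and 63 in ESS, 8.25, 11.4 and 9.64 in NOD at 8 weeks and 10.3, 6.25 and 5.09 at 12 weeks. Rpl22l1-201 measured 32.9, 35.2 and 40.9 in control, 49.6, 35.8 and 27.3 in ESS, 67.3, 79.1 and 69.5 at 8 weeks and 71.2, 53.6 and 58.5 at 12 weeks. The first was the higher in every control and ESS library and the second in every NOD library. Rpl22l1-206 fell by 2.64 and 3.07 (limma adjusted p of 9.5e-05 and 3.74e-05), and Rpl22l1-201 rose by 0.97 and 0.73 (limma adjusted p of 0.0129 and 0.0385). The rise at 12 weeks did not pass in any of the 6 fits that left out 1 library, with adjusted p from 0.0536 to 0.115 by limma. The gene as a whole differed from control by -0.42 (adjusted p = 0.0429 by limma) and -0.59 (adjusted p = 0.00831 by limma). The call at 8 weeks was lost under all 3 other scalings (-0.30 to -0.25, adjusted p from 0.136 to 0.227 by limma), in the fit of only the compared groups, with transcript values summed per gene (-0.32), and in 5 of the 6 fits that left out 1 library. At 12 weeks it was lost when centred (-0.40, adjusted p = 0.0611 by limma) and rescaled (-0.38, adjusted p = 0.0540 by limma).

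**Figure D5:**
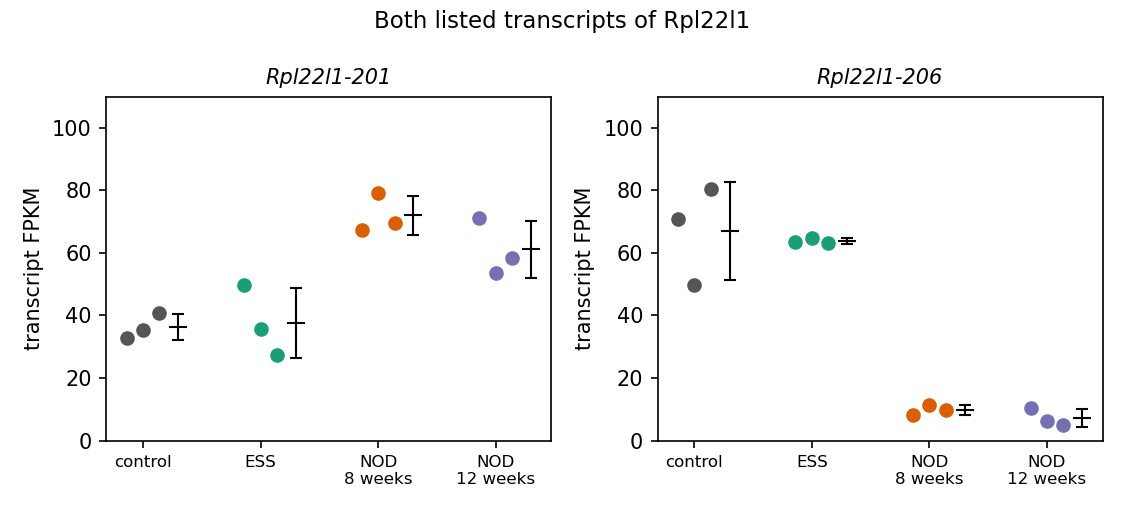
Transcript FPKM of Rpl22l1-201 (left) and Rpl22l1-206 (right) in each library, with mean ± SD of 3. Transcript 206 lies at 49.8 to 80.4 in control and at 5.09 to 11.4 in NOD, while transcript 201 lies at 32.9 to 40.9 in control and at 53.6 to 79.1 in NOD.

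Further transcripts rose against the direction of their genes, in a number near the share of all tested transcripts given above. Rps3-202 measured 4.71, 4.30 and 2.90 in control, 19.8, 23.7 and 22.6 in NOD at 8 weeks and 15.9, 18.2 and 19.9 at 12 weeks, while Rps3-201, with 305, 313 and 298 in control, remained the main form. Rps3-202 rose by 2.23 and 1.95 (limma adjusted p of 8.24e-05 and 0.000191). In Rpl29 the fall lay in Rpl29-201 and Rpl29-203, which measured 31.8 to 93.5 and 57.5 to 75.7 in control and at most 1.10 and 2.79 in NOD. Rpl29-204, a minor form in control at 2.34, 3.34 and 4.67, measured 9.22, 6.55 and 11.5 at 8 weeks and 9.36, 10.3 and 9.33 at 12 weeks, and it rose by 1.18 and 1.29 (limma adjusted p of 0.00878 and 0.00506). Its call at 8 weeks was lost in the fit of only the compared groups (adjusted p = 0.0906 by limma). Rps14-203 rose at 8 weeks (adjusted p = 0.0418 by limma) and Rps19-204 at 12 weeks (adjusted p = 0.0448 by limma). Neither passed in most fits that left out 1 library.

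The start sites of the members were read from RefSeq (GRCm38.p6), which had an entry for 62 of the 88. A pyrimidine tract was searched on the coding strand as a C followed by at least 4 bases that are each C or T, beginning within 5 bases either side of the annotated start. It was found in 30 of the 62, or 48.4%, and in 21.2% of 27025 genes with an entry. The windows below run from 40 bases before the start to 20 bases from it on, with the tract in capitals, for genes set apart and, as a member without a match, Rplp0. Rpl35a has 2 further annotated starts without a tract in reach, and a gene counts as having the tract where any of its starts does. The windows lie at chr17:33955646-33955705 (minus strand), chr3:130730379-130730438 (minus), chr16:33056442-33056501 (plus) and chr5:115559427-115559486 (plus).
Rps18: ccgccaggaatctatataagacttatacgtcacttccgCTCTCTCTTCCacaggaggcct
Rpl34: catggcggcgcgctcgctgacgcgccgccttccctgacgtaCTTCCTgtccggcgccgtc
Rpl35a: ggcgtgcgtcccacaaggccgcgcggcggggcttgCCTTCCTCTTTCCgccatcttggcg
Rplp0: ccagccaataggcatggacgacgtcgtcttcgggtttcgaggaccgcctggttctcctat
A match describes letters in this window, and a missing match says only that no such tract begins within 5 bases of the annotated start. The window of Rplp0 does hold such letters near its end, beyond that reach.

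Genes that work beside the ribosomal proteins were read from lists. Of the cytosolic ribosomal proteins Rpsa, Fau and Rack1, outside the naming rule, 3 of 3 fell at 12 weeks and 1, Rpsa, at 8 weeks. Rpsa was at 186, 200 and 190 in control, 137, 146 and 138 at 8 weeks and 137, 123 and 127 at 12 weeks. Fau, a small subunit protein made as a fusion with a ubiquitin-like protein, measured 296, 334 and 380 in control and 228, 209 and 223 at 12 weeks. At 12 weeks neither overlapped with control. Of 78 mitochondrial ribosomal protein genes, which form a separate ribosome, 14 (17.9%) fell at 8 weeks, a share below that of all tested genes (22.1%), and 30 (38.5%) at 12 weeks, beside 27.8% of all tested genes. None rose, and the medians were -0.14 and -0.26 beside -0.15 and -0.18 over all tested genes. Mrps10 measured 2.70, 3.86 and 3.96 in control and 1.26, 0.99 and 1.14 at 8 weeks, and Mrps7 measured 24.7, 23.3 and 25.4 in control and 17.5, 18.4 and 17.7 at 8 weeks.

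These lists are read against the same shares of all tested genes that fell, 22.1% at 8 weeks and 27.8% at 12 weeks. Of 13 elongation factors and other TOP messenger RNAs, 4 (30.8%) fell at 8 weeks and 10 (76.9%) at 12 weeks, with medians of -0.22 and -0.38. Eef1d, a subunit of the exchange factor of elongation factor 1, fell by 0.66 and Nap1l1, a histone chaperone, by 0.50 at 12 weeks, and Hnrnpa1, an RNA-binding protein, fell by 0.55 at 8 weeks. Of 28 initiation factors, 3 (10.7%) fell at 8 weeks, and 9 (32.1%) fell and 1 rose at 12 weeks, with medians of -0.05 and -0.13. Eif3j1, a loosely bound subunit of factor 3, fell most, by 0.70 and 0.81, and Eif2s1 (-0.31 at 8 weeks) and Eif3g (-0.36 at 12 weeks) also fell. Of 33 tested ribosome assembly genes, 8 (24.2%) fell at 8 weeks, about the share of all genes, and 16 (48.5%) at 12 weeks, among them Nhp2, of the pseudouridylation complex, by 0.76 and 0.83, Fbl by 0.54 at 8 weeks and Nop56 by 0.52 at 12 weeks. Of 14 listed genes of RNA polymerase I, which transcribes ribosomal RNA, 8 (57.1%) fell at each age, among them Taf1d by 0.62 and 0.71, Polr1c by 0.52 at 8 weeks and Cd3eap by 0.66 at 12 weeks. Of 13 listed genes of mTOR signalling and of growth control, none fell at 8 weeks and 1 (7.69%) at 12 weeks, Mlst8 by 0.34. Eif4ebp1 (0.25) and Maf1 (-0.50) at 8 weeks and Myc (-0.33) at 12 weeks did not pass. In ESS against control no gene of any of these lists passed.

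Markers of other cells differed between the groups, and their part in the lower ribosomal protein levels was not tested. The 6 macrophage markers, all listed, summed to 99.4 to 172 FPKM in control, 117 to 196 in ESS, 50.9 to 57.4 in NOD at 8 weeks and 54.9 to 82.9 at 12 weeks. The 6 proliferation markers, all listed, summed to 10.5 to 23.6 in control and 7.28 to 10.3 in ESS, and to 2.83 to 4.26 and 3.02 to 5.17 in NOD. Their sums were thus below control in ESS as well as in NOD. The 4 plasma cell markers, all listed, were higher in NOD, at 89.5 to 109 and 116 to 143, than in control, at 53.4 to 57.2, and in ESS, at 58.0 to 71.2. T cell markers were listed in 2 of 5 cases and B cell markers in 1 of 4, with sums of at most 7.10 and 1.10 FPKM in any library. The T cell sum was 4.74 to 7.10 in control, 4.14 to 6.02 in ESS, and 1.92 to 3.70 and 2.21 to 4.15 in NOD. Only 1 of these genes, a T cell marker, passed the filter, and it fell at both NOD ages, at -0.83 each.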

How the data were processed

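Processed tables of 12 lacrimal gland libraries were used. The authors gave FPKM per gene and per transcript, per the file headers. RNA was extracted with Trizol and libraries were made with a stranded kit, per the labels' protocols, on build GRCm38, per the submitters' processing notes. Aligner and annotation: not given in the sources used here. Counts were not used here, and low values lay on whole-read steps in 45.0% to 67.3% of cases (within 0.1 read), so depth is unknown and no counting interval is given. Each table holds an emptied line, which is not reported here.

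Libraries were grouped by their titles. Genes that reached 1 FPKM in 3 or more libraries were fitted as log2(FPKM + 1), which understates changes of low genes, in limma 3.58.1 (R 4.3.3) with 1 mean per group over all 12 libraries and a trended prior. P-values were Benjamini-Hochberg adjusted over all genes, with a threshold of 0.05. The fit was tested on simulated data. Replicate numbers did not pair libraries (correlations of deviations -0.10 to 0.20 over 18 pairs). Copies were found with BLAST+ 2.17.0 in GENCODE M21. Members, lists and the named genes (Rpl29, Rpl34, Rps18, paralogs, stalk proteins, up to 6 rises and 6 falls per comparison among called genes of at least 5 FPKM without overlap, the 3 most and 3 least abundant, and 2 genes per outside list) were chosen with earlier results of these data known. Alternatives changed pseudocount, filter, scaling, samples, blocking and table.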

Additional observations from a re-analysis of the deposited data

Results flagged for a closer look

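Transcript Rpl10-211 differed between the NOD ages in its distance from control: by limma over all transcripts, the value at 12 weeks minus that at 8 weeks was -3.04 ± 0.29 (SE; adjusted p = 0.0055). It measured 3.81, 3.88 and 3.99 FPKM in control, 11.5, 11.1 and 8.58 in ESS, 52.7, 45.9 and 25.7 in NOD at 8 weeks and 5.17, 4.84 and 2.37 at 12 weeks. The 3 libraries at 8 weeks were above all others, and those at 12 weeks overlapped with control. The gene Rpl10 itself differed by 0.02 between the NOD ages, without passing the threshold.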

How the results depend on the processing

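Counts of members that fell in NOD moved mainly with scaling. At 8 weeks, with 49 called, they were 16 with library medians centred, 20 when rescaled without the most abundant genes and 32 in a fit of only the compared groups, and 30 to 47 when 1 library was left out. Of all 10325 tested genes, 2278 fell in the main fit, and 1150 centred, 1484 rescaled and 1607 with only the compared groups. At 12 weeks, with 81 called, the member counts were 37 centred and 39 rescaled, and 66 to 81 with 1 library left out. Of all tested genes, 2874 fell in the main fit at 12 weeks, and 1241 centred and 1366 rescaled. For ESS against NOD at 8 weeks, 29 members were higher, and 17 under quantile normalization, 18 centred, 17 rescaled, 16 to 32 with 1 library left out and 11 without ESS libraries 1 and 2. For ESS against NOD at 12 weeks, 72 were higher, and 29 under quantile normalization, 40 centred, 31 rescaled, 48 to 70 with 1 library left out and 25 without ESS libraries 1 and 2. The sign of a called gene turned in 5 cases. Rpl17 in ESS against NOD at 12 weeks was -0.06 under quantile normalization. Rps18 joined with its listed copies was 0.27 and 0.06 in NOD at 8 and 12 weeks against control, and -0.30 and -0.09 in ESS against NOD at those ages, by construction of the sum. The family share was 13.8%, 13.7%, 12.0% and 11.2% (control, ESS, NOD at 8 and 12 weeks) without the most abundant genes outside the family in the total. It was 4.63%, 4.51%, 3.16% and 2.75% in the transcript table. The cause of the other changes was not tested. With the replicate number as a block, 0, 56, 82, 0, 34 and 74 members were called in the 6 comparisons (ESS, NOD at 8 and at 12 weeks against control, NOD at 12 against 8 weeks, ESS against NOD at 8 and at 12 weeks), and 6 of 18 libraries compared correlated best with their own number, so the numbers were not taken as pairs. Over the named genes and all alternatives, 2031 of 2159 values kept their direction and side of the threshold, 111 no longer passed and 12 passed newly. FPKM without counts leaves the precision of low members, such as Rpl7a-ps5, unknown.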
